A study of Dascyllus aruanus with 17 samples.

Results

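The NR4A orphan nuclear receptors were followed in whole brains of the humbug damselfish *Dascyllus aruanus*, a coral reef fish. Members were the features of the count table whose name in the deposited annotation was NR4A1, NR4A2 or NR4A3, alone or followed by A or B. This gave 4 features among the 21805 of the table, and each is described apart. *NR4A1* (NUR77) had 2 features, DN9123 and DN60277. *NR4A2* (NURR1) was represented by DN6377 and *NR4A3* (NOR1) by DN47677. The annotation names 13 assembled genes as NR4A in all, 2 for *NR4A1*, 9 for *NR4A2* and 2 for *NR4A3*. No count is at hand for the other 9, so they were not analysed here.

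NR4A receptors are transcription factors with a zinc-finger DNA-binding domain and a ligand-binding domain whose pocket is filled by bulky side chains in mammals. They are therefore thought to act mainly through how much of them is made. In mammalian neurons they are immediate-early genes: calcium and cAMP signals, acting through CREB and MEF2, switch their transcription on within minutes of activity. In mammals *NR4A1* is also induced along the hormonal stress axis, *NR4A2* is needed for midbrain dopamine neurons, and *NR4A3* binds the same DNA site as the other members.

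Fish of 6 wild-caught colonies had 96 h of habituation under the natural light cycle and were then kept for 72 h either under that cycle (control) or with dim white light through the dark phase (ALAN, short for artificial light at night). After 3 nights, fish were killed shortly before sunset (ZT11, zeitgeber hour 11) or shortly before sunrise (ZT23), and every library is 1 whole brain. There were 3 control and 3 ALAN brains from the day and 4 of each from the night. The labels used here state no strain, sex or age. Light was applied to whole colonies and the labels do not say which fish came from which, so colony and treatment cannot be told apart and p-values treat each fish as independent.

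Library totals ran from 14942952 to 23051193 expected counts. Brain identity was checked on marker genes: the summed level of neuronal markers (11 of 12 symbols present) lay between 2240 and 3020 CPM (counts scaled to a common library size) and that of glial markers (10 of 12) between 6100 and 10600 CPM over all libraries. Marker sums of adjoining tissues differed among libraries. Pituitary markers (5 of 12 symbols present, 0 of 8 features at 0 throughout) summed to 908 and 1209 CPM in ALAN day replicates 1 and 2, 1549 CPM in ALAN night replicate 2 and 520 CPM in control night replicate 4. They lay between 79.7 and 134 CPM in the other 10 libraries. Photoreceptor markers (17 of 25 symbols present, 0 of 24 features at 0 throughout) reached 2096 CPM in control night replicate 4 and lay between 59.6 and 442 CPM elsewhere. Muscle markers (14 of 22 symbols present, 0 of 32 features at 0 throughout) summed to 1393 and 1201 CPM in control day replicates 1 and 4 and to between 446 and 620 CPM in the other 12 libraries.

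The identity of the features was read from the deposited annotation. The annotation lists the same domain names for all 13 NR4A genes, the nuclear-receptor zinc finger (zf-C4) and the hormone-receptor domain (Hormone_recep). This includes genes with bit scores as low as 57.0 and 45.8, and the sequences themselves were not searched for domains here. DN9123 and DN60277 matched orthologues with deposited bit scores of 1140 and 1100, and their best matches came from the same reference species. DN6377 had a bit score of 724 and DN47677 one of 674. The 8 *NR4A2* genes outside the count table scored between 45.8 and 427 and the *NR4A3* gene outside it scored 283. Whether reads of such fragments or further copies are part of the values below is not known here. No genome was used, and the features have no chromosomal position here.

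*NR4A1* feature DN9123 had the largest log2 fold change of the family for ALAN at night and for night against day in controls. For ALAN by day that of DN60277 was larger in size (−1.03 against 0.80). For night against day under ALAN that of *NR4A3* was (−1.11 against −0.78). By day the mean level of DN9123 was 5.83 ± 1.55 CPM in controls and 10.15 ± 1.12 CPM under ALAN (SD, n = 3 each). By night it was 2.28 ± 1.07 CPM in controls and 5.89 ± 1.51 CPM under ALAN (SD, n = 4 each). Control nights stood lowest and ALAN days highest in the order of means, and the neighbours in the middle, control day and ALAN night, differed by less than their spread. By the edgeR quasi-likelihood test adjusted over all 20782 tested features, however, none of its differences passed 0.05. In bulk tissue, fewer cells of a type and less RNA per cell cannot be told apart.

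**Figure D1:**
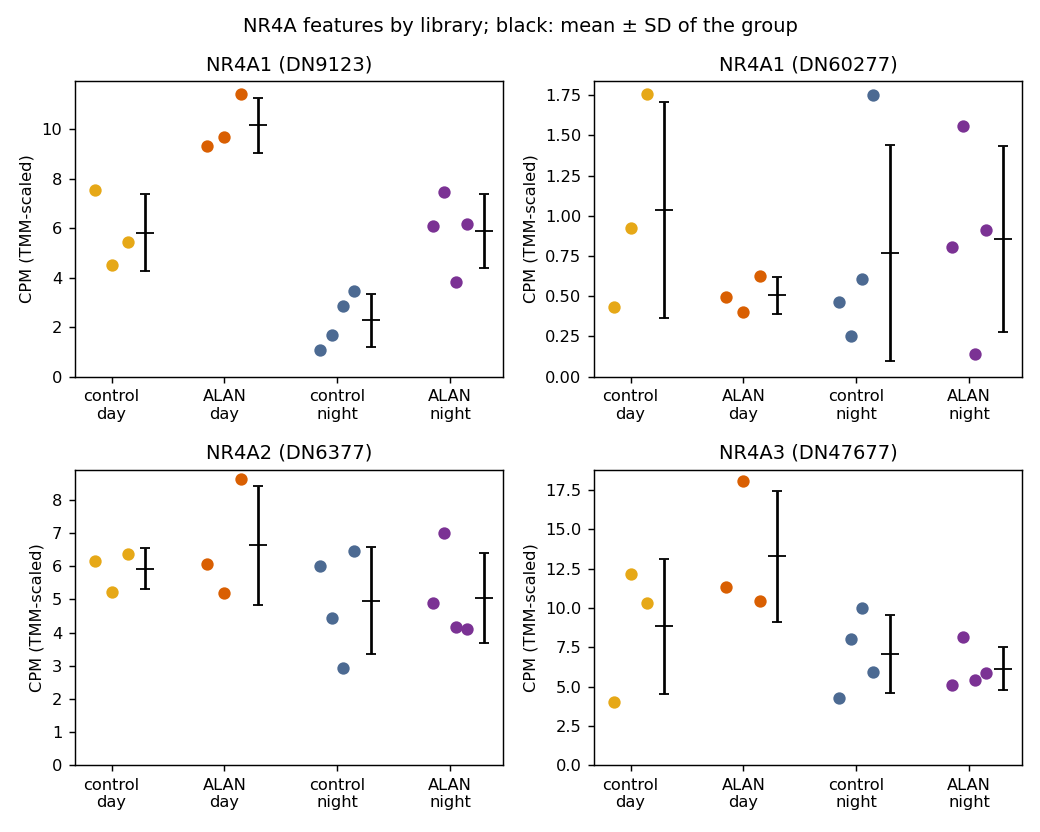
Level in CPM (TMM-scaled) of each NR4A feature in every library, by group, with the group mean ± SD in black. DN9123 of *NR4A1* lies between 1.10 and 3.46 CPM in control nights and between 9.32 and 11.4 CPM in ALAN days, while the groups of DN60277 and DN6377 overlap.

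Night was examined first. Control night brains 1, 2, 3 and 4 held 1.10, 1.70, 2.85 and 3.46 CPM of DN9123. ALAN night brains 1, 2, 3 and 4 held 6.08, 7.46, 3.83 and 6.18 CPM. Every lit brain was above every dark one, and the nearest pair were ALAN night replicate 3 and control night replicate 4. Groups did not overlap for 2.50% of all tested features. The log2 fold change was 1.36 (SE 0.330, 95% interval 0.65 to 2.07, edgeR unadjusted p 0.00111, adjusted p 0.865), rank 26 by p among the tested features. DESeq2 gave the same size, 1.36, with an adjusted p of 0.0418, and called 0.198% of its features. The edgeR test called 6 of all tested features here (0.0289%) and 0 of the 4 NR4A features, of which 1 had an unadjusted p under 0.05 (4.61% of all features did) and DESeq2 called 1.

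Marker sums were set beside this difference. ALAN night replicate 2, with the highest DN9123 of its group, was also the library with the highest pituitary marker sum, and control night replicate 4, the highest of the controls, was high in pituitary and photoreceptor markers. Without the 4 libraries high in pituitary markers the log2 fold change was 1.50 (SE 0.394, edgeR unadjusted p 0.00375). Leaving out 1 library at a time gave values between 1.14 and 1.64. Summed neuronal markers, whose r with DN9123 over the 14 libraries was 0.647, ran from 2240 to 2750 CPM in control nights and from 2500 to 2680 CPM in ALAN nights. For glial, blood, and immune and vessel cell markers r was −0.476, 0.436 and −0.409, and it was smaller in size for the other sets. Blood markers (4 of 11 symbols present) ran from 1130 to 5190 CPM in control nights and from 1040 to 4440 CPM in ALAN nights. The part of these markers in the result was not tested.

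By day, control brains 1, 2 and 4 held 7.53, 4.51 and 5.44 CPM of DN9123, and ALAN brains 1, 2 and 3 held 9.32, 9.70 and 11.4 CPM. The groups did not overlap, as for 10.7% of tested features. The log2 fold change was 0.80 (SE 0.371, 95% interval 0.0034 to 1.60, edgeR unadjusted p 0.0492, adjusted p 0.721, DESeq2 adjusted p 0.566). Of the 4 NR4A features 0 were called by edgeR or DESeq2 and 1 had an unadjusted p under 0.05, where edgeR called 0.00481% of all features and 6.92% had such a p. Liver markers (13 of 18 symbols present, 0 of 25 features at 0 throughout) summed to between 446 and 1090 CPM in control days and between 116 and 225 CPM in ALAN days. The part of these and of the muscle markers, high in control day replicates 1 and 4, was not tested. The pituitary-rich libraries ALAN day replicates 1 and 2 were the lower ones of their group for DN9123.

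A contrast of ALAN with control averaged over both times, added after the data had been seen, gave a log2 fold change of 1.08 for DN9123 (SE 0.249, 95% interval 0.55 to 1.62, edgeR unadjusted p 0.000718, adjusted p 0.245). DESeq2 called it with an adjusted p of 0.00768, as it did 0.744% of its features. Of all tested features, edgeR called 0.00481% in this contrast and 5.71% had an unadjusted p under 0.05. The 4 members had 0 edgeR calls, 1 unadjusted p under 0.05 and 1 DESeq2 call. The interaction, which asks whether the ALAN difference was larger at night than by day, was 0.56 (SE 0.492, 95% interval −0.50 to 1.62, edgeR adjusted p 0.912), so a difference of the ALAN effect between the times of day was not shown. For the interaction, edgeR called 0 features (0%) and DESeq2 56, while 6.15% had an unadjusted p under 0.05. Of the 4 members, 0 had an unadjusted p under 0.05 and DESeq2 called 0 of them.

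The natural day-night difference was taken from the control groups. DN9123 was lower in each of the 4 control night brains than in any of the 3 control day brains, a separation found for 13.4% of tested features. The log2 fold change of night against day was −1.34 (SE 0.351, 95% interval −2.10 to −0.59, edgeR unadjusted p 0.00195, adjusted p 0.0708). DESeq2 called it (adjusted p 0.00913), along with 5.57% of its features. Leaving out 1 library at a time gave log2 fold changes between −1.62 and −1.12. The edgeR adjusted p then lay between 0.0447, without control night replicate 4, and 0.265, without control day replicate 1. It was 0.23 with the control groups fitted alone, 0.162 with replicate number as a block and 0.126 without the 4 pituitary-rich libraries. The edgeR test called 2.07% of all features and 0 of the 4 members, 1 of which had an unadjusted p under 0.05 (14.6% of all features did). The summed immune and vessel cell markers (8 of 11 symbols present, 0 of 9 features at 0 throughout) lay between 94.0 and 128 CPM in control days and between 205 and 340 CPM in control nights, opposite in direction to DN9123. Liver markers ran in its direction, between 446 and 1090 CPM in control days and between 256 and 397 CPM in control nights. Muscle markers were high in control day replicates 1 and 4. Glial markers summed to between 6100 and 8560 CPM in control days and between 9080 and 9770 CPM in control nights. Neuronal markers, whose r with DN9123 was 0.647, ran in its direction with overlapping groups. They summed to between 2670 and 2870 CPM in control days and between 2240 and 2750 CPM in control nights. The part of these marker sets in the result was not tested.

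Under ALAN the day-night difference of DN9123 was −0.78 (SE 0.342, 95% interval −1.52 to −0.05, edgeR unadjusted p 0.0382, adjusted p 0.409), and the 4 night brains were again all below the 3 day brains, as for 11.4% of features. Liver markers lay between 116 and 225 CPM in ALAN days and between 210 and 414 CPM in ALAN nights. Immune and vessel cell markers lay between 122 and 247 CPM and between 203 and 391 CPM. ALAN day replicates 1 and 2 and ALAN night replicate 2 were rich in pituitary markers. Blood markers ran in the direction of DN9123 with overlapping groups, between 3110 and 6120 CPM in ALAN days and between 1040 and 4440 CPM in ALAN nights. The part of these marker sets was not tested. ALAN night brains were also set against control day brains, in a contrast added after the data had been seen. Here the log2 fold change was 0.02 (SE 0.347, 95% interval −0.73 to 0.77, edgeR adjusted p 0.990), and both groups ranged over similar levels, 3.83 to 7.46 and 4.51 to 7.53 CPM. The interval still allows a difference of either sign. Of the members, edgeR called 0 in this contrast, 0 had an unadjusted p under 0.05 and DESeq2 called 0. Of all features edgeR called 2.52%, 1.27% higher and 1.25% lower, and 15.1% had an unadjusted p under 0.05.

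**Figure D2:**
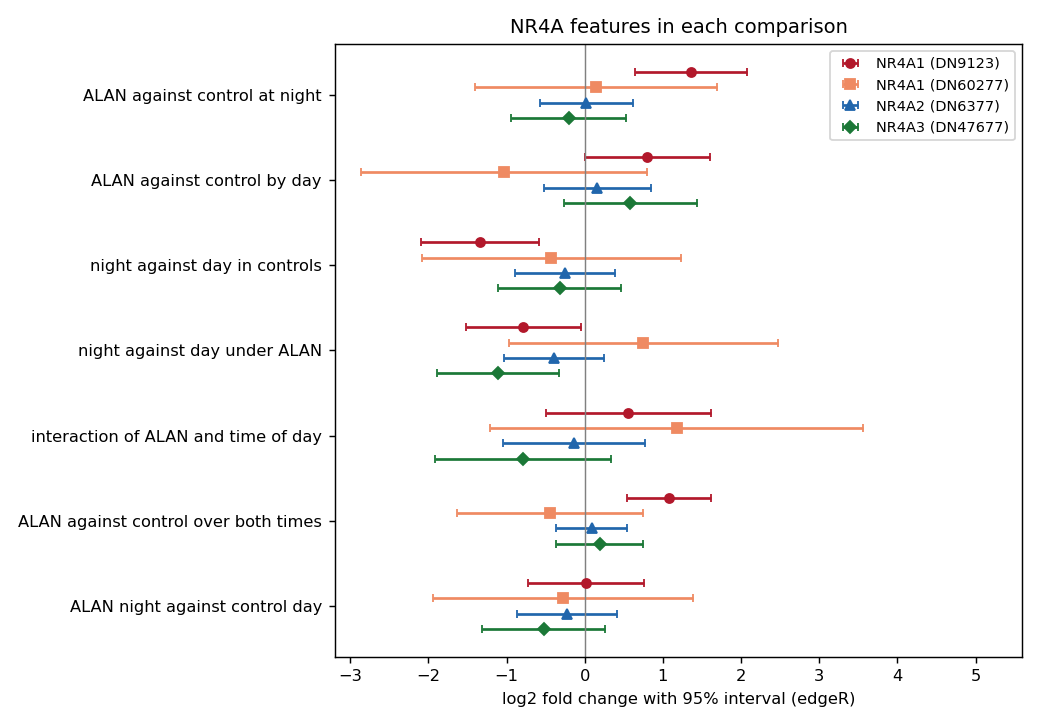
Log2 fold change of each NR4A feature (edgeR, one model over the 14 libraries) with its 95% interval in the 5 comparisons of the design and in 2 added ones; comparisons share groups and are not independent. The interval of DN9123 lies above 0 for ALAN at night (1.36) and below 0 for night against day in controls (−1.34), and those of DN60277 and DN6377 include 0 throughout.

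The other *NR4A1* feature, DN60277, showed no such pattern. It was at 0.430, 0.923 and 1.75 CPM in control day brains 1, 2 and 4 and at 0.493, 0.399 and 0.623 CPM in ALAN day brains. Control night brains held 0.462, 0.250, 0.606 and 1.75 CPM and ALAN night brains 0.806, 1.56, 0.142 and 0.912 CPM. All groups overlapped. Its counts were few, from 3 (95% exact Poisson interval 0.619 to 8.77) to 41 (29.4 to 55.6) in a library. Its biological coefficient of variation within groups, estimated over all groups together, was the highest of the members at 0.670.

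For DN60277 the log2 fold change of ALAN against control was 0.14 at night (SE 0.718) and −1.03 by day (SE 0.849), with edgeR adjusted p of 1 and 0.887. Night against day gave −0.43 in controls (SE 0.773) and 0.75 under ALAN (SE 0.800), with edgeR adjusted p of 0.864 and 0.823. Its highest night libraries, control night replicate 4 and ALAN night replicate 2, were both rich in pituitary markers. Its highest day library, control day replicate 4 at 1.755 CPM, had a pituitary marker sum of 88.5 CPM. The pituitary-rich ALAN day replicates 1 and 2 held 0.493 and 0.399 CPM of DN60277. Over the 14 libraries its r with the pituitary marker sum was 0.219, and the part of these markers was not tested. Without control night replicate 4 the ALAN difference at night was 0.95, and without ALAN night replicate 2 it was −0.31. The interaction was 1.18 (SE 1.11, edgeR adjusted p 0.916) and ALAN over both times gave −0.44 (SE 0.554, adjusted p 0.997). Its differences were not resolved in either direction.

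The log2 ratio of DN9123 to each other member within a library, a measure free of library scaling, is given as a description. DN9123 was made the numerator after its group differences had been seen, so no test of the ratios is given. The ratio of DN9123 to *NR4A3* was −1.93, −2.23, −1.81 and −0.78 in control night brains 1 to 4 and 0.25, −0.13, −0.50 and 0.07 in ALAN night brains 1 to 4. Every ALAN night value was above every control night value, and the means differed by 1.61. DN9123 alone already separated these groups, as did 2.50% of tested features, so the separation of the ratio is not a separate result. No share over ratios of other features was computed.

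The night difference of the ratio was 1.34 for DN9123 against its namesake DN60277 and 1.40 against *NR4A2*, with overlapping groups in both. By day, the ratios to DN60277 and *NR4A2* did not overlap between ALAN and control brains, with differences of 1.64 and 0.69. DN9123 alone already separated the day groups, as did 10.7% of tested features. For DN60277 the nearest ratios were 4.02 in control day replicate 1, where its count was 6, and 4.14 in ALAN day replicate 3. The day difference of the ratio to *NR4A3* was 0.13. DN60277 supplied 12.8 to 33.6% of the counts of the *NR4A1* pair in control nights, 3.57 to 17.3% in ALAN nights, 5.41 to 24.4% in control days and 3.95 to 5.17% in ALAN days. Counts of the pair summed into a single value gave an ALAN difference at night of 1.14 (SE 0.352, edgeR adjusted p 0.811).

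**Figure D3:**
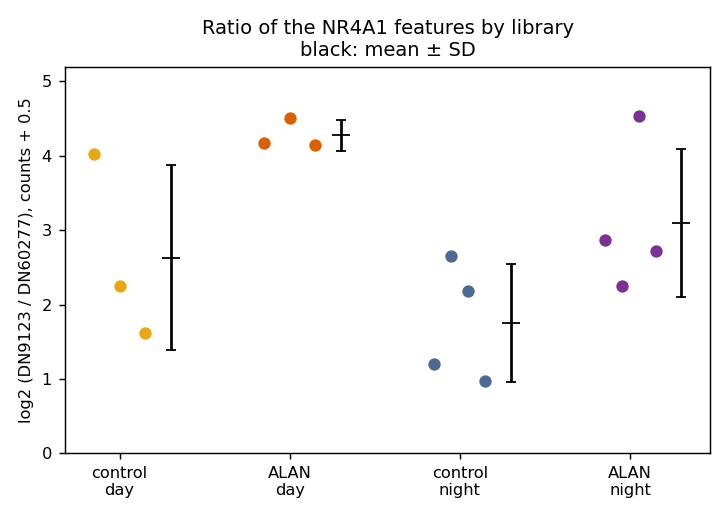
Log2 ratio of the *NR4A1* features DN9123 and DN60277 (rounded counts, 0.5 added to each) in every library, by group, with mean ± SD in black. ALAN day libraries lie between 4.14 and 4.51 and control night libraries between 0.97 and 2.65, and the night groups overlap.

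*NR4A2*, feature DN6377, was the steadiest member, spanning 2.93-fold over the 14 libraries where DN9123 spanned 10.4-fold. Control day brains 1, 2 and 4 held 6.17, 5.21 and 6.38 CPM and ALAN day brains 6.07, 5.19 and 8.62 CPM. Control night brains held 6.01, 4.45, 2.94 and 6.46 CPM and ALAN night brains 4.89, 7.0, 4.17 and 4.10 CPM. Every group overlapped every other, and no neighbours in the order of means (control night, ALAN night, control day, ALAN day) differed beyond their spread.

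The log2 fold change of *NR4A2* for ALAN against control was 0.02 at night (95% interval −0.57 to 0.62, edgeR adjusted p 1) and 0.16 by day (−0.52 to 0.85, adjusted p 0.968). Night against day gave −0.25 in controls (−0.89 to 0.39, edgeR adjusted p 0.767) and −0.39 under ALAN (−1.03 to 0.24, adjusted p 0.704). The interaction was −0.14 (SE 0.422, edgeR adjusted p 0.981) and ALAN over both times gave 0.09 (SE 0.211, adjusted p 0.997). Without the pituitary-rich libraries the day-night difference of *NR4A2* under ALAN was −0.97 (SE 0.394, edgeR adjusted p 0.852), but a single ALAN day brain, replicate 3 with 8.62 CPM, then stood for its group and was assumed to vary like the others.

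*NR4A3*, feature DN47677, was at 4.02, 12.2 and 10.3 CPM in control day brains 1, 2 and 4 and at 11.4, 18.1 and 10.4 CPM in ALAN day brains 1, 2 and 3. Control night brains held 4.28, 8.06, 10.03 and 5.94 CPM and ALAN night brains 5.11, 8.15, 5.44 and 5.88 CPM. The ALAN day brains were above all ALAN night brains, a separation found for 11.4% of tested features, whereas control day and night overlapped, with control day replicate 1 the lowest of the 14 libraries.

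The difference of *NR4A3* between night and day under ALAN was −1.11 (SE 0.365, 95% interval −1.90 to −0.33, edgeR unadjusted p 0.00898, adjusted p 0.225, DESeq2 adjusted p 0.0916). With DN9123, *NR4A3* made 2 of the 4 members with an unadjusted p under 0.05 in this comparison, and 0 were called by edgeR or DESeq2, where edgeR called 1.03% of all features (0.467% higher, 0.563% lower) and 11.1% had such a p. In controls the same difference was −0.32 (SE 0.367, edgeR adjusted p 0.757), and it ranged from −0.66 without control day replicate 1 to −0.02 without control day replicate 2. ALAN against control gave −0.20 at night (SE 0.342, edgeR adjusted p 1) and 0.59 by day (SE 0.393, edgeR adjusted p 0.861). The interaction was −0.79 (SE 0.521, 95% interval −1.91 to 0.33, edgeR adjusted p 0.896), and ALAN over both times gave 0.19 (SE 0.260, adjusted p 0.997). ALAN day replicates 1 and 2, with 11.35 and 18.08 CPM of *NR4A3* against 10.44 CPM in replicate 3, were rich in pituitary markers. So was ALAN night replicate 2, the highest of its group at 8.15 CPM. Control night replicate 4, also rich in them, was at 5.94 CPM, inside the range of its group. Over the 14 libraries the r of *NR4A3* with the pituitary marker sum was 0.485, and the part of these markers was not tested. Without the 4 libraries rich in pituitary markers the day-night difference of *NR4A3* under ALAN was −0.93, but a single ALAN day brain then stood for its group.

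Correlations among the members were low to moderate. Over the 14 libraries the log2 CPM of DN9123 correlated with *NR4A3* at Pearson's r 0.398, with *NR4A2* at 0.395 and with DN60277 at 0.212, while *NR4A2* and *NR4A3* were at 0.027. These values describe libraries that share groups, depth and dissection, and are given without a test. After the group means had been taken out, DN9123 and DN60277 were at 0.569 and *NR4A2* and *NR4A3* at −0.401. The biological coefficient of variation within groups was 0.325 for DN9123, 0.670 for DN60277, 0.293 for *NR4A2* and 0.346 for *NR4A3*, where the median tested feature had 0.281.

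For each member, the 3 named features most like it were found by Pearson's r of log2 CPM over the 14 libraries, among 17584 other named features. DN9123 was most like both features of *NPAS4*, a transcription factor induced by calcium entry in neurons, with r of 0.876 (DN7275) and 0.872 (DN12604). Next was *midn* (r 0.864), which encodes midnolin, a protein that in mammals carries immediate-early proteins to the proteasome. Mean levels in control day, ALAN day, control night and ALAN night brains were 30.8, 38.6, 15.6 and 25.4 CPM for *NPAS4* DN7275. For *midn* they were 15.3, 18, 7.60 and 11.5 CPM, so control nights were lowest in each.

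**Figure D4:**
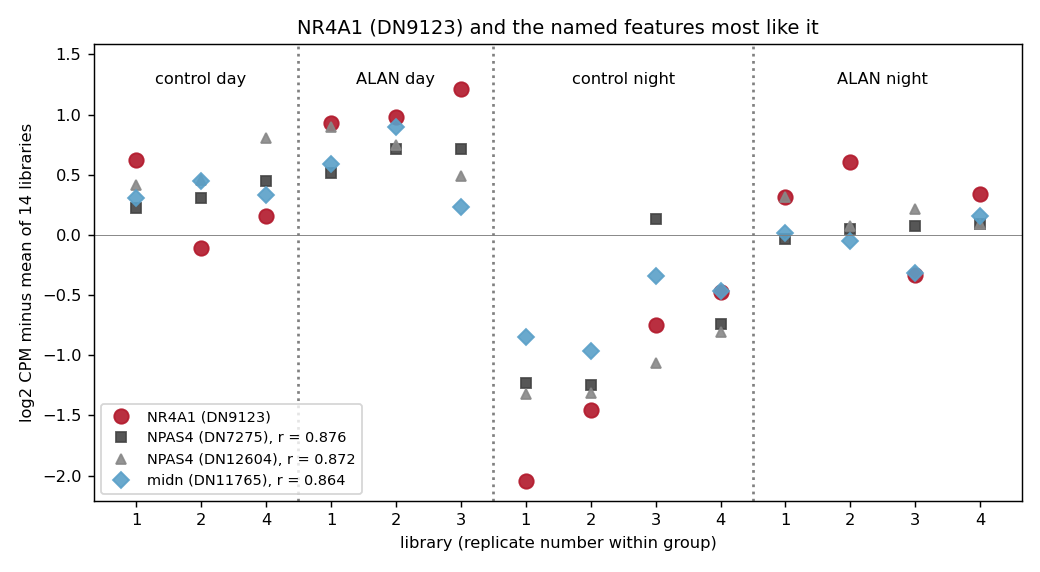
Log2 CPM of *NR4A1* DN9123 and of the 3 named features most like it, each minus its mean over the 14 libraries, by library. Control night libraries lie lowest for DN9123, at 0.265 to 1.84 log2 CPM before centring, and r is 0.864 or more for the features shown.

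The remaining members had other neighbours. DN60277 was most like *SGCA*, a sarcoglycan of the muscle cell membrane (r 0.787), the nuclear receptor *ESRRG* (0.738) and the mitochondrial calcium-uptake gene *MICU3* (0.729). *NR4A2* was most like *SH2D4A* (r 0.841), *SPTSSB*, a small subunit of the enzyme that starts sphingolipid synthesis (0.837), and *LHX3*, a homeobox factor of the pituitary and motor neurons (0.836). *NR4A3* was most like the deubiquitinase *USP22* (r 0.889), the homeobox factor *UNCX* (0.871) and *OBSL1* (0.843). For *NR4A2* and *NR4A3* these r values stayed at 0.743 or more once group means were taken out, whereas those of DN9123 were 0.326 to 0.518.

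Lists of related genes, chosen with earlier results of these data known, were described next. The activity-regulated list, immediate-early genes and their feedback regulators, had 33 tested features under 24 symbols. Over the libraries their median r with DN9123 was 0.636, against −0.014 over all tested features, and 22 of the 33 (66.7%) exceeded 0.5, against 4.61% of all features. Median r of the same list was 0.405 with *NR4A3*, 0.270 with *NR4A2* and 0.121 with DN60277. These values describe the libraries and carry no test.

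In the ALAN comparison at night, 3 of the 33 activity-regulated features were called by edgeR, all higher under ALAN, where 0.0289% of all features were called. The list was chosen with earlier results of these data known, so these shares are a description only. The median log2 fold change of the list was 0.28 against −0.01 over all tested features. *FOS*, a subunit of the AP-1 factor, rose from 12.6 ± 1.87 to 51.8 ± 12.4 CPM (SD, n = 4 each). *NPAS4* DN12604 rose from 5.42 ± 0.961 to 13.4 ± 1.07 CPM and the zinc-finger factor *EGR1* from 10.4 ± 2.41 to 35.0 ± 4.55 CPM, with edgeR adjusted p of 0.00211, 0.0147 and 0.0153 for the 3 features. DN9123, with its log2 fold change of 1.36, was close in size to *NPAS4* DN12604 (1.30), with an SE of 0.330 against 0.160. The other *NPAS4* feature, DN7275, had means of 15.6 CPM in control nights and 25.4 CPM in ALAN nights and was not called. DESeq2 called 7 of the list, and 0.198% of its features. Without the 4 pituitary-rich libraries edgeR called 1 of the list, with a median log2 fold change of 0.35, and 0.00467% of all features. For ALAN in day brains edgeR and DESeq2 called 0 of the list, and 2 had an unadjusted p under 0.05.

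For night against day in controls, 15 of the 33 passed, 2 higher and 13 lower in night brains, where 1.07% of all features were called higher and 1.00% lower. The median log2 fold change of the 33 was −0.75 (0.01 over all tested features). The smallest p values belonged to the clock gene *PER1* (log2 fold change 4.87), the ERK phosphatase *DUSP6* (2.13) and the clock-linked repressor *NFIL3* (−2.55), with edgeR adjusted p of 1.16e-07, 7.41e-06 and 3.79e-05. Without the pituitary-rich libraries 12 were called, 2 higher and 10 lower, with a median of −0.74, where 0.869% of all features were called. Under ALAN 6 were called, 2 higher and 4 lower, where 1.03% of all features were called, and the median was −0.32. Without those libraries the median under ALAN was −0.24, but a single ALAN day brain then stood for its group, so no count of calls is given. *NR4A1* DN9123 had the sign of the majority of the list in both comparisons.

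The path upstream of NR4A transcription, namely CREB and its coactivators, MEF2 factors, kinases and phosphatase, had 55 tested features. For ALAN, edgeR and DESeq2 called 0 in night brains and 0 in day brains. Unadjusted p was under 0.05 for 2 and 3 features, as for 4.61% and 6.92% of all features. For night against day in controls 1 was called higher and 1 lower, where 1.07% of all features were called higher and 1.00% lower. *CREM*, whose short form ICER is a cAMP-induced repressor in mammals, fell from 85.4 ± 21.1 CPM by day to 38.6 ± 3.96 CPM at night (SD, n = 3 and 4, log2 fold change −1.15, edgeR adjusted p 0.0305). *SRF* rose from 24.2 ± 6.89 to 45.5 ± 3.74 CPM (log2 fold change 0.91, edgeR adjusted p 0.0352). Without the pituitary-rich libraries 0 were called higher and 1 lower, where 0.869% of all features were called.

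**Figure D5:**
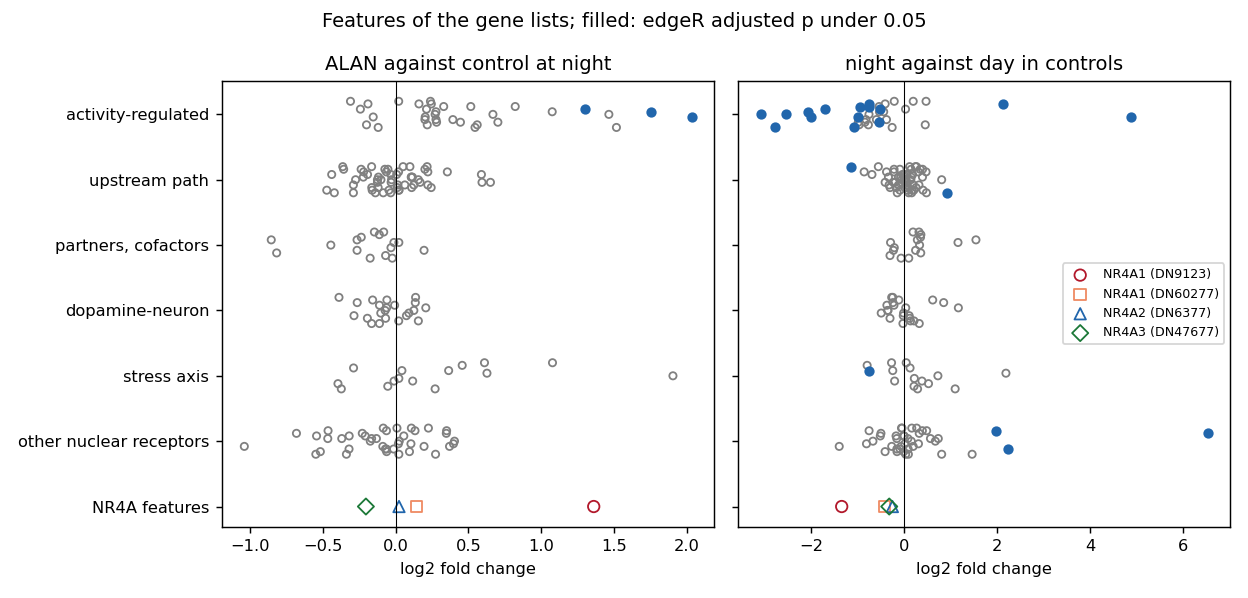
Log2 fold change (edgeR) of every tested feature of 6 gene lists and of the NR4A features, for ALAN against control at night and for night against day in controls; filled points passed an adjusted p of 0.05. In the activity-regulated list 3 features passed at night under ALAN and 15 in the control day-night comparison, and no NR4A feature passed in either.

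Dimer partners and cofactors, the retinoid X receptors and the corepressors and coactivators of nuclear receptors among them, had 16 tested features, of which edgeR called 0 in each of the comparisons. Among the 4 pairwise comparisons within a time or treatment DESeq2 called 1, higher at night in controls. It called 5.57% of its features there. Before adjustment, p was under 0.05 for 0 features in the ALAN difference in night brains, 3 in that of day brains, 3 in the control day-night difference and 2 in the same difference under ALAN. The shares over all features were 4.61%, 6.92%, 14.6% and 11.1% in the same order, and they are the background of the further counts at night and by day. Genes that NR4A2 binds or that are needed beside it in mammalian dopamine neurons had 22 tested features. Neither edgeR nor DESeq2 called any of them for ALAN in night or day brains, and the unadjusted p was under 0.05 for 0 in night and 1 in day brains. For night against day under ALAN DESeq2 called 1 of the list higher and 2 lower, and 3.18% of its features. In controls it called 0 higher and 1 lower, and 5.57% of its features. The edgeR unadjusted p was under 0.05 for 6 of the 22 under ALAN and 1 in controls, against 11.1% and 14.6% of all features. The semaphorin coreceptor *NRP1* was the 1 feature of the list that edgeR called lower at night under ALAN, where it called 0.563% of all features lower. It was at 41.7 ± 3.16 CPM by day and 30.0 ± 1.59 CPM at night (SD, n = 3 and 4, log2 fold change −0.47, edgeR adjusted p 0.0296). In controls, where edgeR called 0 of the list, *NRP1* was at 40.3 ± 0.841 CPM by day and 31.6 ± 1.58 CPM at night. Without the pituitary-rich libraries a single ALAN day brain was left, so no count of calls is given for that setting.

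Stress-axis genes tied to NR4A1 in mammals had 15 tested features. The ALAN comparisons had 0 calls by edgeR or DESeq2, and 1 feature in night and 0 in day brains had an unadjusted p under 0.05. For night against day in controls 1 of the 15 was called lower, where 1.00% of all features were. It was *CRH*, the hypothalamic peptide that starts the stress axis, at 56.3 ± 13.1 CPM by day and 33.4 ± 5.08 CPM at night (SD, n = 3 and 4, log2 fold change −0.76, edgeR adjusted p 0.0353). Without the pituitary-rich libraries 0 of the list were called. *POMC* is in both this list and the pituitary markers. Of 40 tested features of other nuclear receptors, edgeR called 0 for ALAN in night or day brains, with 2 and 4 at an unadjusted p under 0.05. DESeq2 called 0 in night and 3 in day brains, where it called 0.198% and 0.68% of its features. In controls edgeR called 3 higher at night, where 1.07% of all features were. These were *NR1D1* and both *NR1D2* features, the REV-ERB clock repressors, whose night-against-day log2 fold changes were 6.54, 1.99 and 2.24, with 5.26e-06, 3.21e-06 and 0.000195 as their edgeR adjusted p. Under ALAN 3 of the list were called higher and 1 lower at night, where 0.467% and 0.563% of all features were.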

How the data were processed

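The authors' deposited table holds expected counts for genes assembled without a reference, and 95.98% of its values were not whole. Per the submitters' processing notes, Trimmomatic 0.39, Bowtie2 and RSEM were used, with no settings given. Per the labels' protocols, the libraries were non-stranded with unique molecular identifiers, and no source used here says whether these were collapsed. Names and the deposited bit score come from eggNOG-mapper 2.1.7, per the file headers. The 3 assembly libraries were not analysed here.

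Counts were rounded, filtered with filterByExpr (minimum count 10, total 15, 20782 features kept) and fitted in R 4.3.3 with edgeR 4.0.16 (quasi-likelihood, TMM factors 0.870 to 1.08, a mean per group, 10 residual and 3.55 prior degrees of freedom). All 4 members passed the filter. P-values were adjusted by Benjamini-Hochberg over all tested features with a threshold of 0.05. SE is the absolute log2 fold change over the square root of F. Intervals are 95% and those of counts cover counting error only. DESeq2 1.42.0 was an alternative. The edgeR procedure was tested on simulated counts with known changes, for ALAN against control at night alone. Only the median size of the log2 fold change was held to a limit there.

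Members and lists were chosen with earlier results of these data known. The ratios, 2 contrasts (ALAN over both times, ALAN night against control day) and the setting without the 4 libraries over 500 CPM of pituitary markers were added after the data were seen, as were the list counts under that setting and under DESeq2. List features were named when called, at most 3 per list and comparison by p, and for each member the 3 named features with the highest r.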

Additional observations from a re-analysis of the deposited data

How the results depend on the processing

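Of the 4 NR4A features, edgeR called 0 in every comparison, and so did RLE size factors, no filter, sums by name, the groups of a comparison alone and the replicate block. Omission of the 4 libraries rich in pituitary markers, chosen after seeing the data, also gave 0 in the comparisons without the ALAN day group. In the other comparisons that omission left a single ALAN day brain. DESeq2 called 1, DN9123, for ALAN at night, for night against day in controls and for ALAN over both times. Leaving out 1 library at a time gave 0 to 1 calls for night against day in controls and 0 elsewhere. Labels give no meaning to shared replicate numbers, and same-numbered libraries' deviations from group means correlated between −0.167 and 0.103 (18 pairs), so the numbers were not taken as pairs. Over all features, night against day in controls had 430 edgeR calls, 240 with the replicate block, 191 in those groups alone, 186 without the pituitary-rich libraries and 1108 by DESeq2. Leaving out single libraries gave 216 to 552, with 217 and 216 without control day replicates 1 and 4 and 257 and 282 without control night replicates 2 and 3. Night against day under ALAN had 214 by edgeR, 126 in those groups alone and 657 by DESeq2, and 131 without ALAN day replicate 1 or 2 (131 to 214 over single libraries). Without the pituitary-rich libraries a single ALAN day brain was left, so no count is given there. ALAN night against control day had 524 by edgeR, 307 in those groups alone, 183 without the pituitary-rich libraries, 1198 by DESeq2 and 305 with the replicate block. Single libraries gave 233 to 606, with 248 and 233 without control day replicates 1 and 4 and 309, 301 and 302 without ALAN night replicates 2, 3 and 4. ALAN at night had 6 edgeR calls, 3 with sums by name, 1 without the pituitary-rich libraries, 1 to 8 with single libraries left out (1 without control night replicate 1 or 2 or ALAN night replicate 3) and 41 by DESeq2. For ALAN by day, the interaction and ALAN over both times, edgeR had 1, 0 and 1 calls and DESeq2 138, 56 and 154, and single libraries gave 0 to 6, 0 and 0 to 11, the highest without control day replicate 2. The cause of these changes was not tested. All remaining sign changes were in values that passed no test. With the replicate block, DN60277 was at 0.0096 for ALAN over both times and 0.040 for ALAN night against control day. Without the pituitary-rich libraries, *NR4A2* was at −0.024 for ALAN at night, DN60277 at −0.013 for night against day under ALAN, *NR4A3* at −0.104 for ALAN over both times and DN9123 at −0.118 for ALAN night against control day. Leaving out single libraries gave the following ranges of log2 fold change. For ALAN at night they were −0.31 to 0.95 for DN60277, −0.17 to 0.18 for *NR4A2* and −0.38 to 0.012 for *NR4A3*. For ALAN by day *NR4A2* ranged from −0.071 to 0.30, and in the interaction from −0.33 to 0.094. For night against day in controls DN60277 ranged from −1.23 to 0.18. For ALAN over both times *NR4A2* ranged from −0.024 to 0.17. For ALAN night against control day DN9123 ranged from −0.13 to 0.24 and DN60277 from −0.75 to 0.32. DN60277 had the fewest counts, 3 to 41 a library.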
